A study of Rattus norvegicus with 5 samples.

Results

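The stem and progenitor cell marker genes Lpar1, Prom1, Msi1, Msi2, Sox2, Pax6, Hes1, Hopx, Nes and Fabp7 were followed through maps of DNA regions enriched by an antibody against N6-methyladenine (6mA) in rat cells. A gene was counted in a list when its symbol stood in the promoter, upstream 2 kb, exon, intron, downstream 2 kb or gene body column of a row. Of the 10 genes, 4 had a row in at least 1 of 9 lists (Lpar1, Prom1, Msi1 and Msi2), and 6 had none (Sox2, Pax6, Hes1, Hopx, Nes and Fabp7). Over the whole series, 23553 gene symbols had a row in at least 1 list. That count includes symbols outside the 23154 protein-coding genes of the reference, so it gives no share. Of protein-coding genes, 93.7% of the shortest 10% and 9.89% of the longest 10% had no row in any list. The study immunoprecipitated sonicated, denatured genomic DNA from Astrocytes, Neurons and neural stem cells (NSCs), with 1 library for each. The NSCs were SCR022, a line of neural stem cells from adult rat hippocampus, while the labels give no origin, age or treatment for the Astrocytes and Neurons. Input libraries of unenriched DNA were samples for Neurons and NSCs; an astrocyte input was not analysed here. With 1 library per cell type there was no replicate check, no test between cell types, and no computed p-value.

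6mA is an adenine methylated on its amino group, a mark long studied in bacteria, and its level in mammalian DNA is under debate. Neural stem cells divide and give rise to neurons and glia, and in the adult brain they persist in the hippocampal dentate gyrus and the subventricular zone. The genes described here are used to recognise such cells because their RNA or protein is abundant in them: surface receptors, RNA-binding proteins, transcription factors, a cytoskeletal filament and a lipid carrier. The assay reads DNA and not RNA, so the cell type labels could not be checked against marker expression. No second method for 6mA was applied to these regions here.

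The immunoprecipitated libraries held 15767015 reads in Astrocytes, 16095308 in Neurons and 15760246 in NSCs. The input libraries held 22329441 reads for Neurons and 27936774 for NSCs. The authors' peak lists, each called against input, held 116091 peaks in Astrocytes, 137579 in Neurons and 121816 in NSCs. Score and fold are the authors' own values for each peak: the fold is the enrichment over input, and the score is 10 times the −log10 p of the peak caller, with a minimum of 50. The median peak score was 87.0 in Astrocytes, 88.3 in Neurons and 86.8 in NSCs, and the median fold was 12.3, 12.1 and 12.2 in the same order. The lists were called separately, so their folds are set side by side and were not compared across cell types. Positions are as the files give them, and the sources used here give no genome build for them. They are not positions on GRCr8, the build of the gene lengths and promoter windows used below. On chromosome 10 the Msi2 rows lay at 75681168 to 76039147, while its GRCr8 promoter windows lay between 73826150 and 74007747. Lengths and windows thus come from another annotation than the rows.

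Promoter sequences are shown first for 3 of the genes, because a promoter is where a mark on these genes would usually be looked for and none of the 3 had a promoter row in any list. They cover the 250 bases before the transcription start in the RefSeq annotation of GRCr8, written 5′ to 3′ on the strand of the gene. The promoter column of the lists follows the authors' own annotation, and these windows could not be placed on the positions of the lists. Capitals mark matches, on either strand, to CACNAG (reverse complement CTNGTG), the N box that HES proteins bind, and to GTGGGAA, a sequence bound by the Notch effector RBPJ. No 2 matches overlapped. Hes1 encodes a basic helix-loop-helix repressor switched on by Notch, and in the mouse its product represses its own promoter through N boxes. Sox2 and Msi2 are the shortest and the longest of the 10 genes, and the Msi2 window shown is the first of 3 in the annotation.
Hes1 (chr11:84213046-84213295, minus strand): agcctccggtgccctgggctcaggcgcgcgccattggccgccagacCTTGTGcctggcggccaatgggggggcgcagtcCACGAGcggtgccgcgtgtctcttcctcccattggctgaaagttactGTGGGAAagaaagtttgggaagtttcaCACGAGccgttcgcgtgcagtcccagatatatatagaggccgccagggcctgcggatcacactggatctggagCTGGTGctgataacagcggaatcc
Sox2 (chr2:119464881-119465130, plus strand): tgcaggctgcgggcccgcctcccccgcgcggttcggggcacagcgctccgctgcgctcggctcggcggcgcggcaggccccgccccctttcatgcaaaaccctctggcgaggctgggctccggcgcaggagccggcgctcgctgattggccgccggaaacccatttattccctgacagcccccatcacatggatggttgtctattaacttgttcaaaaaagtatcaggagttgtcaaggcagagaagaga
Msi2 (chr10:74007498-74007747, minus strand): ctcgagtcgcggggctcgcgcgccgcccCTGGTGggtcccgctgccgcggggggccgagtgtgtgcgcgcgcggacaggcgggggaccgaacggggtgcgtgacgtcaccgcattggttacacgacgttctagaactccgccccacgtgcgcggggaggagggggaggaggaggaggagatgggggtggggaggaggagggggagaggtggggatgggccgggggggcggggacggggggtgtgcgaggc
The Hes1 window held 4 N box matches and 1 GTGGGAA match, the Msi2 window shown held 1 N box match, and the Sox2 window held neither motif. Over 33469 rat promoter windows of the same length, 37.2% held an N box match and 5.27% held GTGGGAA. The windows shown held 18 CpG in Hes1, 23 in Sox2 and 31 in Msi2, against a median of 5 over all windows. Their adenine and thymine content was 38.4% in Hes1, 35.6% in Sox2 and 24.4% in Msi2, against a median of 48.8%. The other 2 Msi2 windows held 6 and 2 CpG, 0 and 2 N box matches, and 52.0% and 48.4% adenine and thymine. A match is a description of the letters and not a binding site.

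Among the 10 genes, 4 had a peak in Astrocytes, 4 in Neurons and 4 in NSCs, and they were the same genes each time: Lpar1, Prom1, Msi1 and Msi2. Of 23154 protein-coding genes of the reference, 39.5% had a peak in Astrocytes, 42.3% in Neurons and 39.3% in NSCs. The share of marker genes with a peak, 4 of 10, was near that background and is not a result about these genes. The 4 genes with peaks were the longest of the set, from 96.6 kb for Msi1, through 104.7 kb for Prom1 and 122.9 kb for Lpar1, to 366.5 kb for Msi2. The 6 genes without a row ran from 2.41 kb for Sox2 to 26.95 kb for Hopx. Long genes had peaks more often in general: 87.3% of the longest 10% of protein-coding genes had a peak in Astrocytes, 87.7% in Neurons and 87.2% in NSCs, against 9.29%, 9.98% and 9.07% in the length class of Sox2 and Hes1. The part of gene length in which genes had a peak was not tested further.

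**Figure D1:**
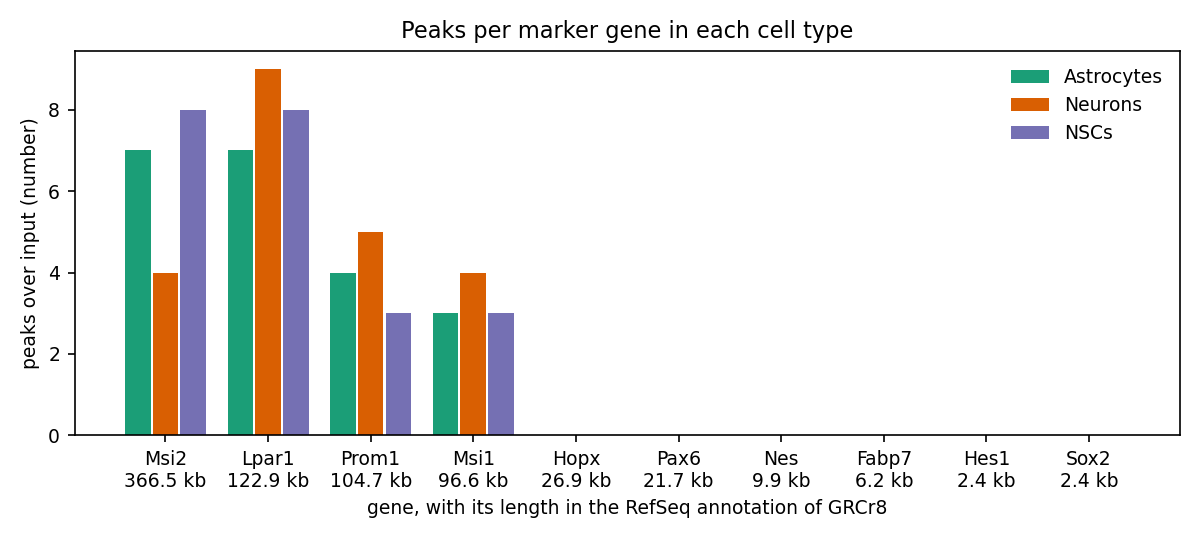
Number of authors' peaks over input (vertical axis) in each of the 10 marker genes (horizontal axis, longest gene first, with its RefSeq length in kb) for Astrocytes, Neurons and NSCs, 1 library each. The bars run from 3 to 9 peaks in Msi2, Lpar1, Prom1 and Msi1, and the other 6 genes, of 26.95 kb or less, have no bar.

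Counted per kb of RefSeq gene length, the order of the genes changed. Lpar1 had 7 peaks in Astrocytes, 9 in Neurons and 8 in NSCs, which is 5.69, 7.32 and 6.51 peaks per 100 kb. Msi2 had 7, 4 and 8 peaks in the same order of cell types, which over its greater length is 1.91, 1.09 and 2.18 per 100 kb. Msi2 was thus the sparsest of the 4 genes in all 3 libraries. Prom1, with 4 peaks in Astrocytes, 5 in Neurons and 3 in NSCs, had 3.82, 4.78 and 2.86 per 100 kb. Msi1, with 3, 4 and 3 peaks, had 3.10, 4.14 and 3.10 per 100 kb. The rows of Msi1 spanned only 35.2 kb, beside a length of 96.6 kb in GRCr8, which is not the build of the rows. A second count used the span of each gene's own rows, a length chosen after seeing the data. By that count Msi1 had 8.53, 11.4 and 8.53 peaks per 100 kb, above 6.64, 8.54 and 7.59 for Lpar1. Prom1 had 6.36, 7.95 and 4.77 by that count, below Msi1, although by RefSeq length Prom1 was above Msi1 in Astrocytes and Neurons. Whether Msi1 was denser than Lpar1, or than Prom1 in Astrocytes and Neurons, therefore depended on the length used. Msi2 remained the sparsest with 1.96, 1.12 and 2.23 per 100 kb. Of the 65 member peaks, 59 were annotated to introns alone.

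Peaks that overlapped between cell types by at least 1 bp were joined into 34 loci over the 4 genes. Of these loci, 14 had a peak in all 3 cell types, 3 in 2 cell types and 17 in 1 (4 in Astrocytes, 7 in Neurons and 6 in NSCs). The loci found in all 3 cell types had a median best score of 373, with a range of 80.5 to 1440. Those found in 1 cell type had a median best score of 68.9, with a range of 50.1 to 131. A locus in 3 cell types takes the highest of 3 scores and a locus in 1 takes its only score, so these medians are not like for like. Peaks seen in 1 library alone mostly scored low, with a median below the list medians of 86.8 to 88.3.

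Lpar1 encodes a G protein-coupled receptor for lysophosphatidic acid and marks stem and progenitor cells of the adult mouse hippocampus. All its rows lay in introns on chromosome 5, over a span of 105.4 kb. The locus at 75622090 to 75622881 was its strongest in every library, with a fold of 65.5 in Astrocytes, 93.6 in Neurons and 59.6 in NSCs. The scores there were 1304, 1396 and 967 in that order, above those of 97.6%, 98.0% and 97.2% of the peaks in their own lists. All 3 libraries were thus strongly enriched at this intron, and no comparison list held a region there.

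The other high peaks of Lpar1 also recurred. At 75560945 to 75561816 the fold was 31.9 in Astrocytes, 27.8 in Neurons and 39.3 in NSCs, with scores of 500, 371 and 547. At 75620642 to 75621174 the fold was 32.1 in Astrocytes, 48.3 in Neurons and 30.5 in NSCs, with scores of 407, 435 and 239. The peaks at both positions scored high in each list. At 75563092 to 75564163 the fold was 20.2 in Astrocytes, 27.8 in Neurons and 14.4 in NSCs, with scores of 270, 373 and 195. At 75590418 to 75590953 the fold was 10.2 in Astrocytes, 28.9 in Neurons and 27.4 in NSCs, with scores of 91.6, 347 and 250. That locus was the weak one of the group in Astrocytes, while its peaks in Neurons and NSCs ranked above 87.5% and 84.2% of their lists. Of 10 Lpar1 loci, 7 were found in all 3 cell types, 2 in Neurons alone and 1 in NSCs alone. The 2 loci in all 3 cell types that are not described above had folds from 8.91 to 22.9.

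Comparison lists set 1 immunoprecipitated library directly against another. Their folds are the authors' enrichment values, and how these were computed is not stated. They are not the ratio of the folds over input. At 75620642 to 75621174 the folds over input were 32.1 in Astrocytes and 30.5 in NSCs, beside a listed comparison fold of 6.68. Wherever a region is called some fold higher, the number is this listed value and not a measured ratio. Lpar1 had 7 regions in them, and each lay in a peak of the cell type in which it was higher, called from the same library. In the authors' deposited tables, the locus at 75590418 to 75590953 was 8.60-fold higher in Neurons than in Astrocytes (75590466 to 75590878, score 135) and 5.12-fold higher in NSCs than in Astrocytes (75590418 to 75590827, score 55.3). Astrocytes were thus the low library of that locus in both comparisons, which share the Astrocyte library. The authors' deposited tables also gave 6.68-fold higher signal in Astrocytes than in NSCs at 75620660 to 75621174 (score 65.0), a locus with peaks in all 3 libraries.

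The loci of Lpar1 seen in 1 library were each narrower than the median peak of their list. The Neuron peak at 75601201 to 75601569 (fold 17.4, score 131) was 6.01-fold higher in Neurons than in Astrocytes and 8.30-fold higher in Neurons than in NSCs in the authors' deposited tables, with region scores of 50.9 and 64.1. The NSC peak at 75584308 to 75584660 (fold 10.0, score 53.1) was 9.30-fold higher in NSCs than in Astrocytes and 9.87-fold higher in NSCs than in Neurons in the authors' deposited tables, with region scores of 51.7 and 53.1. A Neuron peak at 75666120 to 75666367 (fold 13.2, score 76.2) had no region in a comparison list.

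**Figure D2:**
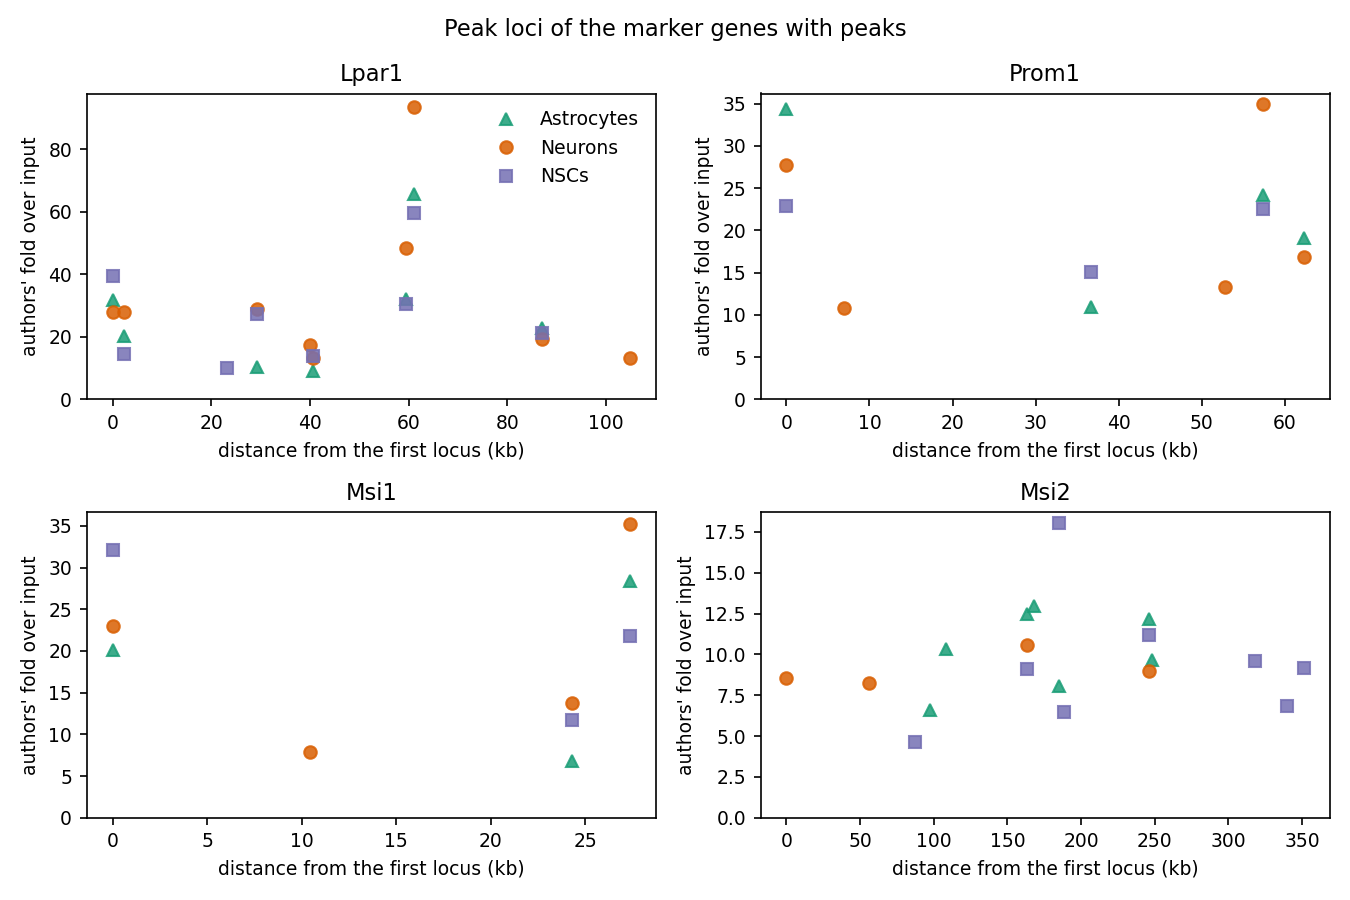
Authors' fold over input (vertical axis) of every peak in Lpar1, Prom1, Msi1 and Msi2, placed by distance in kb from the gene's first locus (horizontal axis), for Astrocytes, Neurons and NSCs, 1 library each. Lpar1 reaches a fold of 65.5, 93.6 and 59.6 at 1 intronic locus in Astrocytes, Neurons and NSCs, while no Msi2 peak passes a fold of 18.1 and most Msi2 loci carry 1 symbol; the vertical scales differ between panels.

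Prom1 encodes prominin-1 (CD133), a membrane glycoprotein of stem cell protrusions used to sort neural stem cells. Its 6 loci lay on chromosome 14 over 62.9 kb, and 2 of them were found in all 3 cell types. At 71543102 to 71543924, in an intron, the fold was 34.4 in Astrocytes, 27.8 in Neurons and 22.9 in NSCs, with scores of 326, 379 and 204. At 71600468 to 71601204 the fold was 24.2 in Astrocytes, 35.0 in Neurons and 22.6 in NSCs, with scores of 296, 372 and 201. The peaks of this second locus reached into an exon in Neurons (71600525 to 71601166) and NSCs (71600468 to 71601204), while the Astrocyte peak (71600468 to 71600993) lay in the intron alone. Both loci scored above 80.5% to 88.5% of the peaks in their lists, and neither had a region in a comparison list.

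The other Prom1 loci were intronic and weaker. At 71580011 to 71580433 the fold was 10.9 in Astrocytes and 15.04 in NSCs, with scores of 76.5 and 80.6, and Neurons had no peak there. At 71605570 to 71606019 the fold was 19.1 in Astrocytes and 16.9 in Neurons, with scores of 111 and 125, and NSCs had no peak. Neurons alone had peaks at 71550108 to 71550685 (fold 10.9, score 76.3) and at 71596045 to 71596516 (fold 13.3, score 90.2). All 3 Prom1 regions of the comparison lists were of 1 kind, higher in Neurons than in NSCs, and each lay in a Neuron peak. They were, in the authors' deposited table, 7.80-fold at 71605599 to 71606019 (score 58.4), 8.26-fold at 71550108 to 71550685 (score 52.7) and 10.7-fold at 71596045 to 71596516 (score 68.1).

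Msi1 encodes Musashi-1, an RNA-binding protein that holds back translation of mRNAs such as that of Numb and is abundant in neural progenitors. It was the only one of the 10 genes with a promoter row in any of the 9 lists. The promoter peak, which also covered the upstream 2 kb class, lay on chromosome 12 at 46935602 to 46936785 in Astrocytes, 46935674 to 46936768 in Neurons and 46935415 to 46936744 in NSCs. Its fold was 28.4 in Astrocytes, 35.2 in Neurons and 21.8 in NSCs, and its score was 1440, 1279 and 1026 in that order. These scores stood above 98.0%, 97.7% and 97.5% of the peaks in their own lists, and the peak was 1183, 1094 and 1329 bp wide, against median widths of 447, 456 and 467 bp. The promoter peak was thus strong and broad in all 3 libraries, and no comparison list held a region at it.

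Introns of Msi1 held 3 further loci. At 46908254 to 46909199 the fold was 20.1 in Astrocytes, 23.0 in Neurons and 32.1 in NSCs, with scores of 518, 640 and 884. At 46932581 to 46933520 the fold was 6.87 in Astrocytes, 13.8 in Neurons and 11.8 in NSCs, with scores of 129, 297 and 303. In the authors' deposited table these loci were 4.35-fold (46908378 to 46909199, score 69.6) and 4.04-fold (46932581 to 46933394, score 62.2) higher in NSCs than in Astrocytes. Those were the smallest folds of all 52 comparison regions of the marker genes, at loci where both libraries had a peak. The other was a Neuron peak at 46918824 to 46919487 (fold 7.94, score 90.9), within the shore of a CpG island annotated at 46920624 to 46921805.

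The authors' deposited table for Neurons over NSCs held that Neuron peak at 10.1-fold (score 110). Astrocytes had no peak there, yet the authors' deposited table for Astrocytes over NSCs held 46918948 to 46919346 at 10.1-fold (score 65.0). The Msi1 regions left lay in a peak of neither library compared. They were, in the authors' deposited tables, 8.32-fold higher in NSCs than in Neurons at 46925049 to 46925470 (score 51.2), 7.68-fold higher in NSCs than in Astrocytes at 46922697 to 46923141 (score 53.6) and 5.56-fold higher in Neurons than in Astrocytes at 46901628 to 46902276 (score 64.2). The first 2 of these rows also name LOC102548026, so the files assign them to both genes.

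Msi2 encodes Musashi-2, the paralogue of Musashi-1 with a broader expression, known also from blood stem cells. Its rows spread over 358.0 kb of chromosome 10, and its peaks were low. Scores ran from 51.0 to 94.2 in Astrocytes, 53.8 to 85.1 in Neurons and 50.1 to 187 in NSCs. Only 1 of 7 peaks in Astrocytes, 0 of 4 in Neurons and 2 of 8 in NSCs scored above the median of their list. Lpar1 had 6 of 7, 8 of 9 and 7 of 8 peaks above it in Astrocytes, Neurons and NSCs, and Prom1 3 of 4, 4 of 5 and 2 of 3. All Msi1 peaks (3, 4 and 3) were above it.

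**Figure D3:**
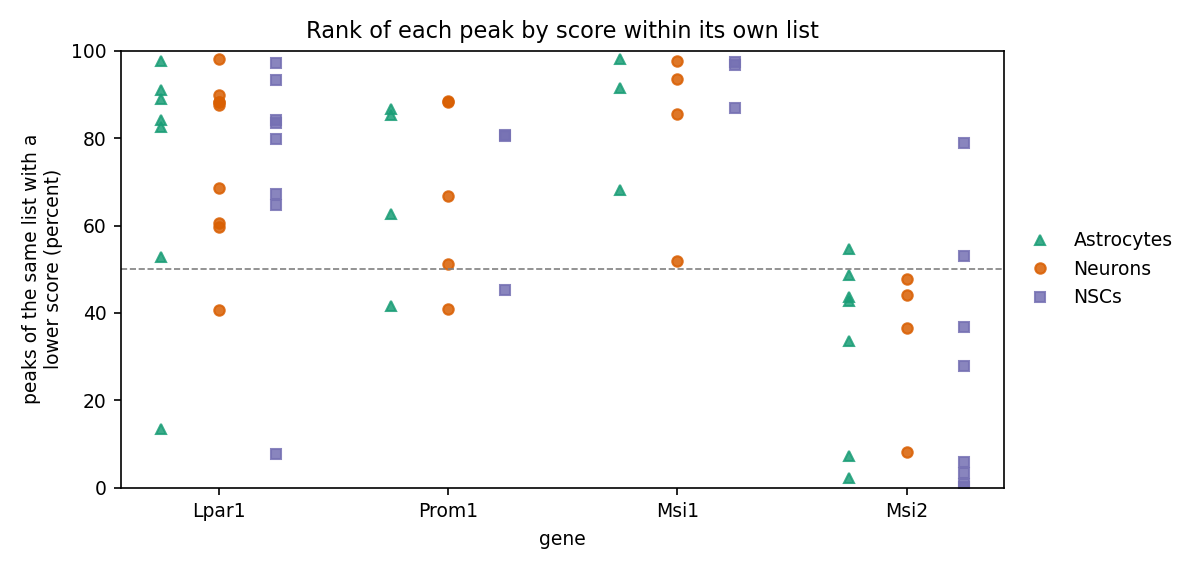
Rank of every peak of Lpar1, Prom1, Msi1 and Msi2 by score, as the percent of peaks of the same list with a lower score (vertical axis), for Astrocytes, Neurons and NSCs, 1 library each; the dashed line marks the list's middle. All 10 Msi1 peaks lie above the line, with the promoter peak above 98.0%, 97.7% and 97.5% of peaks in Astrocytes, Neurons and NSCs, whereas only 3 of 19 Msi2 peaks do.

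Of 14 Msi2 loci, 2 were found in all 3 cell types, 1 in 2 cell types and 11 in 1. At 75933184 to 75933759 the fold was 12.2 in Astrocytes, 9.01 in Neurons and 11.2 in NSCs, with scores of 94.2, 85.1 and 91.4. At 75850996 to 75851560 the fold was 12.5 in Astrocytes, 10.6 in Neurons and 9.11 in NSCs, with scores of 51.0, 80.5 and 71.6. Neither recurring locus had a region in a comparison list. The locus in 2 cell types, 75872536 to 75873248, held the strongest Msi2 peak, with a fold of 8.05 in Astrocytes and 18.1 in NSCs, and scores of 78.7 and 187. Astrocytes alone had a peak at 75855722 to 75856082, with a fold of 13.0 and a score of 85.2. Neurons alone had peaks at 75687417 to 75687947 (fold 8.55, score 53.8) and 75743359 to 75743899 (fold 8.24, score 72.4). In each library the Msi2 peak of highest score was at a locus found in at least 1 other cell type. The 1 Msi2 peak outside introns alone was in NSCs at 76038629 to 76039147, across an exon and intron, with a fold of 9.17 and a score of 64.4. It lay in the shore of a CpG island annotated at 76040274 to 76041203, and the same row names the neighbouring LOC102549226.

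Msi2 held 35 of the 52 comparison regions of the marker genes. It is also the longest of the 10 genes, at 366.5 kb, and regions were not counted per kb. Msi1 had 7 regions for a RefSeq length of 96.6 kb, Lpar1 7 for 122.9 kb and Prom1 3 for 104.7 kb. Of the 35 Msi2 regions, 23 lay in a peak of neither library compared. In the authors' deposited table for Astrocytes over Neurons there were 4 Msi2 regions, at 75795494 (13.0-fold, score 73.9), 75831128 (10.7-fold, score 51.7), 75855722 (10.8-fold, score 66.0) and 75935587 (11.7-fold, score 81.2), each position being the start of the region. The authors' deposited table for Neurons over Astrocytes held 9, starting at 75685574, 75699065, 75731443, 75732268, 75743359, 75834302, 75944324, 75985227 and 76000247, with folds of 7.46, 10.4, 10.4, 9.10, 11.2, 7.49, 11.2, 7.85 and 8.06 in that order. Their scores ran from 51.9 to 92.1. The highest of these by score was the region at 75743359 to 75743899, which matched a Neuron peak and was the only 1 of the 9 to lie in one.

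Against NSCs the regions of Msi2 were as scattered. For Astrocytes over NSCs the authors' deposited table held 2, at 75795494 to 75795858 (13.3-fold, score 75.1) and 75935587 to 75935957 (10.1-fold, score 72.6), both Astrocyte peaks. The first of them lies in a row that also names LOC103693413. For NSCs over Astrocytes the authors' deposited table held 4, starting at 75818784 (10.0-fold, score 51.4), 75843629 (8.92-fold, score 51.5), 76005715 (13.1-fold, score 69.4) and 76010522 (10.1-fold, score 51.4). Only the region at 76005715 lay in an NSC peak.

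Between Neurons and NSCs, Msi2 had regions in both directions. For Neurons over NSCs the authors' deposited table held 7, starting at 75687417, 75784631, 75846051, 75882038, 75921611, 75985227 and 76000247, with folds of 12.7, 8.82, 12.3, 9.92, 9.34, 9.34 and 11.9 in that order. Their scores ran from 57.4 to 95.9. The 1 of them in a Neuron peak was the first, at 75687417. For NSCs over Neurons the authors' deposited table held 9, starting at 75681168, 75843629, 75872534, 75875975, 75897514, 75951779, 76005715, 76010522 and 76027406, with folds of 7.30, 8.43, 8.34, 8.92, 8.64, 7.40, 13.2, 10.1 and 8.35 in that order. Their scores ran from 50.1 to 80.2. The highest by score, 8.34-fold at 75872534 to 75873248, covered the strongest Msi2 peak of NSCs, and the region at 75681168 to 75681650 (7.30-fold, score 50.1) was the 1 that touched an exon. Msi2 thus carried regions in every direction of all 3 comparisons, mostly of low score.

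Counted by gene, the comparison lists read against their background as follows. For Neurons over NSCs, 4 of the 10 had a region, against 23.2% of 23154 protein-coding genes, and for NSCs over Neurons 3 did, against 20.5%. A region higher in Astrocytes than in NSCs was listed for 3 of the 10, against 18.6% of genes, and a region higher in NSCs than in Astrocytes for 3, against 22.3%. Msi2 alone had a region higher in Astrocytes than in Neurons, against 15.3% of genes, and 3 of the 10 had a region higher in Neurons than in Astrocytes, against 25.6%. Each count is 4 or fewer genes out of 10, and the genes are the longest of the set. The background covers genes of all lengths, and no share of genes with a region was computed for long genes alone. These counts are therefore not a result about the 10 genes. Lpar1, Msi1 and Msi2 had regions in both directions between Neurons and NSCs, and Prom1 in 1 direction.

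The number of regions was 4 for Astrocytes over Neurons and 12 for Neurons over Astrocytes. It was 4 for Astrocytes over NSCs and 9 for NSCs over Astrocytes, and 12 for Neurons over NSCs and 11 for NSCs over Neurons. The full lists were also unequal, with 16599 regions for Astrocytes over Neurons and 39716 for Neurons over Astrocytes, and 21671 for Astrocytes over NSCs and 32105 for NSCs over Astrocytes. Of the 52 member regions, 25 (48.1%) lay in a peak of the cell type in which they were higher, against 78.3% of all 169938 regions. Region and peak were called from the same higher library, so lying in a peak is not independent support for a region. In the full lists, the share of regions with the exact coordinates of such a peak ran from 31.9% (Neurons over Astrocytes) to 84.3% (Neurons over NSCs). By gene, the regions that overlapped a peak of the higher cell type by at least 1 bp were 7 of 7 for Lpar1 and 3 of 3 for Prom1. They were 3 of 7 for Msi1 and 12 of 35 for Msi2. The low share of 48.1% thus came from the 2 Musashi genes, and mainly from Msi2.

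**Figure D4:**
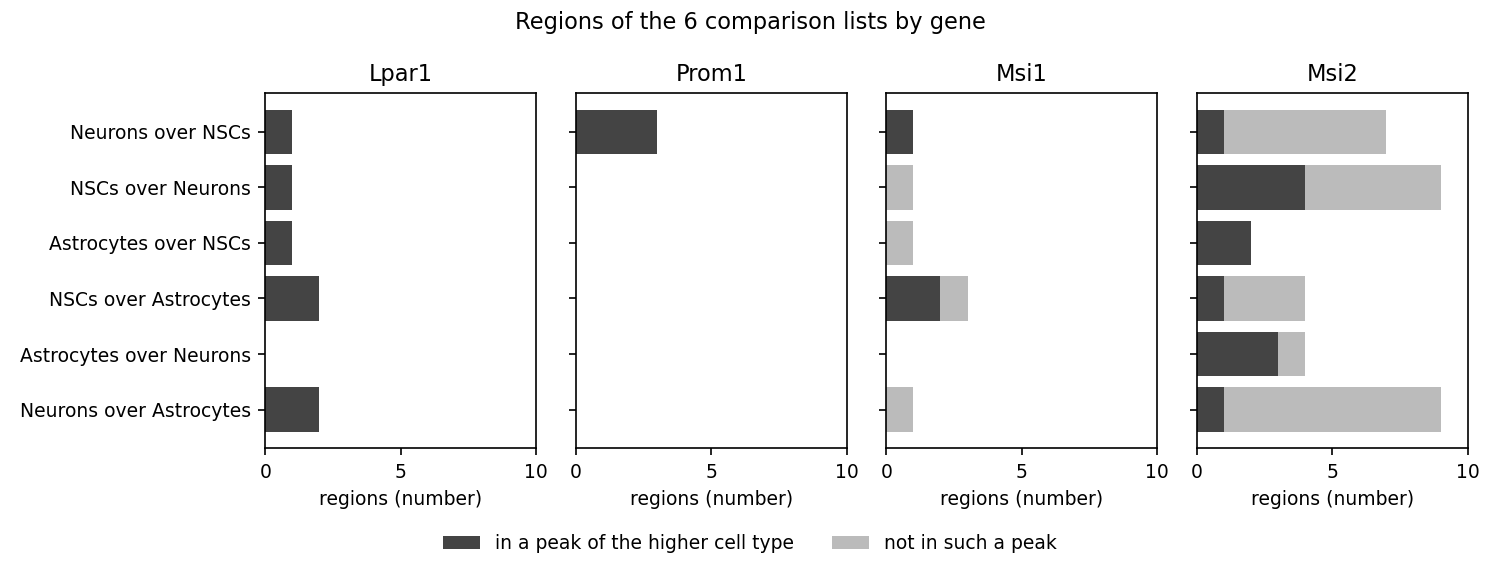
Number of regions (horizontal axis) of Lpar1, Prom1, Msi1 and Msi2 in each of the authors' 6 comparison lists (rows), split into those inside a peak of the cell type in which they are higher (dark) and those outside any such peak (light). All 7 Lpar1 and all 3 Prom1 regions are dark, against 3 of 7 in Msi1 and 12 of 35 in Msi2.

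Most member peaks recurred in another library. Of the 21 member peaks of Astrocytes, 17 (81.0%, exact 95% Clopper-Pearson interval 58.1% to 94.6%) overlapped a peak of another cell type, against 70.8% of all Astrocyte peaks. The share was 15 of 22 in Neurons (68.2%, interval 45.1% to 86.1%), against 63.9% of all Neuron peaks. It was 16 of 22 in NSCs (72.7%, interval 49.8% to 89.3%), against 67.9% of all NSC peaks. These shares lay within counting error of those over all peaks. Peaks shared with both other cell types made up 14 of 21 in Astrocytes (66.7%, interval 43.0% to 85.4%), 14 of 22 in Neurons (63.6%, interval 40.7% to 82.8%) and 14 of 22 in NSCs (63.6%, same interval), against 45.8%, 38.6% and 43.6% of all peaks. The interval held the share over all peaks in Astrocytes and NSCs, and its lower end lay above that share in Neurons. These are the same 14 loci seen from each library, and peaks of 1 gene share their source, so the intervals cover counting error only.

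Sox2, an HMG-box transcription factor that keeps neural stem cells undifferentiated, had no row in any of the 9 lists. The same held for Pax6, a paired-box and homeodomain factor of radial glia, and for Hes1, the Notch-driven repressor whose promoter is shown above. Hopx, a homeodomain protein that does not bind DNA itself and marks quiescent stem cells of the adult mouse dentate gyrus, also had none. Nes, which encodes the intermediate filament nestin, and Fabp7, the brain lipid-binding protein of radial glia, completed the 6 genes without a row. No row carried a synonym of a member in place of its symbol. Their lengths were 2.41 kb for Sox2, 21.7 kb for Pax6, 2.41 kb for Hes1, 26.95 kb for Hopx, 9.92 kb for Nes and 6.17 kb for Fabp7. Of protein-coding genes in the same length class (10 classes of equal size), 78.3% had no row in any list for Sox2 and Hes1, 57.4% for Nes and Fabp7, 36.7% for Pax6 and 24.3% for Hopx. The lists hold only regions past the authors' minimum score, so enrichment below it at these genes could not be seen.

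Another 22 genes of neural stem and progenitor cells were read in the same lists, among them Sox1, Sox3, Sox9, Sox21, Hes5, Id1, Id3, Id4, Nr2e1, Vim, Gfap, Slc1a3, Egfr, Itga6, Notch1, Bmi1, Rest, Emx2, Lhx2, Tfap2c and Thrsp. Of these 22 genes, 9 had a peak in Astrocytes, 10 in Neurons and 6 in NSCs, against 39.5%, 42.3% and 39.3% of all protein-coding genes. In at least 1 cell type, 12 of the 22 had a peak. Over protein-coding genes that share ran from 5.57% of the shortest 10% to 89.8% of the longest 10%. None of these counts is a result about the 22 genes. The strongest exonic peak was in Vim, which encodes the intermediate filament vimentin, on chromosome 17. Its fold was 50.3 in Astrocytes (80887574 to 80888406), 38.8 in Neurons (80887647 to 80888172) and 33.5 in NSCs (80887520 to 80888237), with scores of 1049, 682 and 665. The Vim region was 5.09-fold higher in Astrocytes than in Neurons in the authors' deposited table (score 67.2). Vim, at 8.49 kb, was a short gene with a peak in all 3 libraries.

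Id3 and Slc1a3 had promoter rows in Neurons and in no other list. Id3, an inhibitor of basic helix-loop-helix factors, had a Neuron peak on chromosome 5 at 154489187 to 154489533 (fold 8.45, score 52.9) that reached into a CpG island. Slc1a3, the glutamate transporter GLAST, had a promoter peak in Neurons on chromosome 2 at 57935891 to 57936410 (fold 10.2, score 86.2) and 2 peaks in Astrocytes, 3 in Neurons and 4 in NSCs in all.

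Gfap, the glial filament gene, had an exonic peak on chromosome 10 with a fold of 13.3 in Astrocytes, 9.59 in Neurons and 8.36 in NSCs, and scores of 84.6, 68.4 and 88.7. All 3 libraries thus had a peak there, in the shore of a CpG island. Nr2e1, which encodes the stem cell nuclear receptor TLX, had a peak across an exon and intron in Astrocytes (chromosome 20, 47288241 to 47288720, fold 8.55, score 67.8) and an intronic one in NSCs (47288401 to 47288814, fold 9.45, score 82.8). Egfr, the epidermal growth factor receptor gene of 172.7 kb, had the most peaks of the 22 genes, with 3 in Astrocytes, 3 in Neurons and 4 in NSCs. Regions in the comparison lists were found for 3 of the 22 genes in Astrocytes over Neurons and 4 in Neurons over Astrocytes, against 15.3% and 25.6% of all protein-coding genes. They were found for 3 in Astrocytes over NSCs and 2 in NSCs over Astrocytes, against 18.6% and 22.3%, and for 4 in Neurons over NSCs and 2 in NSCs over Neurons, against 23.2% and 20.5%. These counts, of 2 to 4 genes each, are not a result about the 22 genes.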

How the data were processed

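The samples used were genomic DNA of 3 immunoprecipitated libraries (Astrocytes, Neurons and NSCs) and 2 inputs (Neurons and NSCs). Reads were aligned with BWA, per the submitters' processing notes, which give no version. The deposited mapping summary gives read counts per library and mapping rates in percent; 1 of its rows, an astrocyte input, belongs to no sample here and was not used. The authors' peak and comparison lists, named in the style of MACS, hold a score (10 times the −log10 p, minimum 50, which is a p of 1e-05) and a fold. The fold is the authors' enrichment value of 1 library over its input or over another library, and its computation is not stated. The caller's version, genome build, filters and annotation are not stated in any source used here, and 6 blank rows were skipped.

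Rows were matched to genes by exact symbol in the comma-split annotation columns of the deposited files. Overlap meant at least 1 bp. Gene lengths and promoter sequences came from RefSeq GRCr8; all 10 genes had a length and 8 had a promoter window. Shares carry exact Clopper-Pearson 95% intervals that cover counting error alone, as neither reads nor adjacent peaks are independent. No test was run, because each cell type had 1 library.

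All 10 genes are described; where a gene had over 5 peaks in a cell type, the 3 highest by score per cell type, every peak outside introns and every comparison region are named. Of the 22 other genes, those with a promoter, exon or CpG island row and the 3 with most peaks are named, except 1 gene that is counted but not reported here by name. The members, the other genes and the rules were chosen with earlier results of these data known. Alternatives were a score of at least 100, a fold of at least 15 for peaks or 10 for regions, gene body, exon and intron columns only, and an overlap of 50% of the shorter peak. Python 3.11.15, pandas 2.3.3, scipy 1.17.1 and matplotlib 3.10.9 were used.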

Additional observations from a re-analysis of the deposited data

How the results depend on the processing

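Each cell type had 1 library of about the same depth, so no library could be left out and the spread between libraries is unknown. No paired analysis was possible because the groups have 1 library each and the results come from no test. Of 78 values recomputed under an alternative, 41 stayed within 1.5 times the value reported (for shares, within its counting interval) and 37 did not; 31 of the 37 were under stricter thresholds, which keep fewer rows. With a score of at least 100, the marker genes with a peak were 3 in Astrocytes, 3 in Neurons and 4 in NSCs, and their peaks numbered 11, 14 and 13 in that order. With a fold of at least 15 the peaks numbered 10 in Astrocytes, 12 in Neurons and 11 in NSCs. A score of at least 100 left marker genes with a region at 1 for Neurons over NSCs, 0 for NSCs over Neurons, 0 for Astrocytes over NSCs, 0 for NSCs over Astrocytes, 0 for Astrocytes over Neurons and 1 for Neurons over Astrocytes. A fold of at least 10 left 1 for NSCs over Neurons, 1 for NSCs over Astrocytes and 1 for Neurons over Astrocytes. With a score of at least 100 in every list, member peaks that overlapped another cell type made up 100.0% in Astrocytes, 92.9% in Neurons and 92.3% in NSCs. No share over all peaks or all genes was computed at the stricter thresholds. The counts and shares at those thresholds, here and below, are therefore not results about the marker genes or the 22 other genes. Of the 22 other genes, a score of at least 100 left 2 with a peak in Astrocytes, 4 in Neurons and 2 in NSCs. It left 1 with a region for Neurons over NSCs, 1 for NSCs over Neurons, 1 for Astrocytes over NSCs, 0 for NSCs over Astrocytes, 0 for Astrocytes over Neurons and 1 for Neurons over Astrocytes. At that score Msi2 kept 0 peaks per 100 kb in Astrocytes, 0 in Neurons and 0.2728 in NSCs, and Prom1 2.865 per 100 kb in Neurons. Using the gene body, exon and intron columns alone removed the promoter peak of Msi1 in each library, and an overlap of 50% of the shorter peak left the shares of member peaks found in another and in both other cell types as they were (the second share was added after seeing the data). Per span of the gene's own rows, also added after seeing the data, Msi1 had 8.533, 11.38 and 8.533 peaks per 100 kb in Astrocytes, Neurons and NSCs, and Prom1 6.358, 7.947 and 4.768.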

Other observations

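Beyond the Msi1 promoter, away from the gene body, further peaks without a gene name stood within 20 kb on chromosome 12. A peak 1255 bp beyond the promoter peak's end in Astrocytes (46938040 to 46938872), 1368 bp in Neurons (46938136 to 46938819) and 1283 bp in NSCs (46938027 to 46938876) had a fold of 28.8, 27.3 and 22.4 in that order, with scores of 603, 549 and 463. All 3 libraries thus had a second strong peak next to that promoter. A weaker one near 46945513 in Astrocytes, 46945506 in Neurons and 46945564 in NSCs had a fold of 7.46, 12.9 and 5.56. Astrocytes alone had a further peak at 46941755 to 46942452, with a fold of 5.82 and a score of 63.8.

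Among the 22 other genes, Notch1 is named here after its values were seen. An intronic Notch1 peak on chromosome 3 had a fold of 46.2 in Astrocytes (3940986 to 3941915), 31.5 in Neurons (3941013 to 3942043) and 27.2 in NSCs (3941204 to 3942002), with scores of 1494, 931 and 486. In the authors' deposited tables this region was 5.12-fold higher in Astrocytes than in NSCs (score 173) and 3.81-fold higher in Neurons than in NSCs (score 59.9). Both comparisons share the NSC library.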
